A study of Mus musculus with 6 samples.

Results

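Respiratory complex I is the NADH:ubiquinone oxidoreductase of the inner mitochondrial membrane. Its genes were taken here as every gene name on the array that reads Ndufa, Ndufb, Ndufc, Ndufs or Ndufv followed by a number, which gave 37 subunit genes, or Ndufaf followed by a number, which gave 7 assembly factor genes. These 44 genes were among 37074 gene names on the array. All 44 had a probe that was well above background on all 6 arrays, so none was lost to the filter on dim probes, and no spot of theirs was saturated. The array held 68 probes for them, of which 63 were measured, and the brightest measured probe stood for each gene.

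The study measured RNA of the kidney cortex of male C57BL/6 mice on 1-colour Agilent arrays, 3 from C3aR-/- controls and 3 from WT controls. C3aR-/- mice lack the receptor for the complement fragment C3a, which is encoded by C3ar1. Both groups belonged to the control arm, which entered at an age of 8 weeks, ate chow in which fat gave 10% of calories and got vehicle where the diabetic arm had streptozotocin. The tissue was taken 20 weeks after induction, and the comparison asks how gene expression differed without the receptor in mice that were not made diabetic. The sources used here do not say how C3ar1 was deleted or whether the mice were littermates. Nor do they state that samples came from separate animals, so p-values cover the sample-to-sample spread only, which may be technical.

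A level below is the log2 processed signal of a probe minus the 75th percentile of the array, and a log2 change is the C3aR-/- mean minus the WT mean. The probe for C3ar1 was well above background on 0 of 3 C3aR-/- arrays and 1 of 3 WT arrays, so it gave no check of the labels. Of all 20438 genes tested, limma called 1450 as higher in C3aR-/- than in WT cortex and 1499 as lower (adjusted p under 0.05). Each array had 56.5% to 59.3% of its spots well above background. All C3aR-/- arrays lay on 1 slide and all WT arrays on another, so slide and genotype cannot be told apart in any result below. On the second principal component of all genes, C3aR-/- replicate 1 lay at 30.2, away from C3aR-/- replicates 2 and 3 at -20.0 and -18.6.

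Complex I takes electrons from NADH, passes them along flavin and iron-sulfur centres to ubiquinone, and pumps protons across the inner membrane. Its peripheral arm holds an N module, where NADH is oxidised, and a Q module, where ubiquinone is reduced, and its membrane arm pumps protons. The most hydrophobic core subunits are encoded by mitochondrial DNA, the remaining subunits by nuclear genes, and assembly factors join the pieces without staying in the finished enzyme. The cortex is rich in proximal tubule cells, which depend on mitochondrial oxidation for the energy of reabsorption.

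The sequences below belong to the genes on which the results turn. Ndufaf4, the single gene of the 44 that passed the test, was read by a probe on chromosome 4 (mm9, 24830285 to 24830344, plus strand). Ndufa10 had 3 measured probes on the minus strand of chromosome 1 that differed from one another, at 94348635 to 94348694 (the brightest), at 94361039 to 94363996 (a probe that spans an intron) and at 94369356 to 94369415 (mm9). ND6 and ND5 are neighbouring genes on opposite strands of the mitochondrial genome, and their probes lay at 13552 to 13611 (ND6) and 13402 to 13461 (ND5) of the mitochondrial sequence in the array files.
Ndufaf4 probe: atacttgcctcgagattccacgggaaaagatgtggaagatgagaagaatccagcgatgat
Ndufa10 brightest probe: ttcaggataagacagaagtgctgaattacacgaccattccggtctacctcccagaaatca
Ndufa10 intron-spanning probe: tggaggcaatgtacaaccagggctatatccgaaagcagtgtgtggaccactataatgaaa
Ndufa10 probe at 94369356: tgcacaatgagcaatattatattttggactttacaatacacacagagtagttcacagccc
ND6 probe: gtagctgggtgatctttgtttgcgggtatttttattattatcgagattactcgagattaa
ND5 probe: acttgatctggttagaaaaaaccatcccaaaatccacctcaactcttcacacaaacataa

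None of the 37 subunit genes passed the test, where 14.4% of all genes did, 7.09% higher and 7.33% lower. At an unadjusted p under 0.05 in limma, 10 subunits were higher and 0 lower in C3aR-/- cortex, against 18.1% and 15.3% of all genes. The log2 changes were small and lay mostly above 0. Of the 37, 31 were positive, against 52.7% of all genes, and their median was 0.11, against 0.02 for all genes. The span ran from -0.13 for Ndufb6 to 0.25 for Ndufa6, and the 95% interval stayed inside ±0.5 for 36 of the 37, the exception being Ndufa4l2. The C3aR-/- and WT arrays did not overlap in 24 subunits, with the C3aR-/- arrays above in 21 and below in 3, against 22.3% and 19.1% of all genes (41.4% in either direction). In bulk tissue, a change in the number of cells of a type and a change in RNA per cell cannot be told apart.

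The excess of positive values followed the scaling of the arrays. With quantile normalisation 24 subunits were positive and 13 negative, with a median of 0.03. In the authors' deposited log2 table, whose columns share 1 distribution, 18 were positive and 19 negative, with a median of -0.00285. The median of all genes was 0.02 in each of these settings. Scaling to the median of each array gave 33 positive and 4 negative and a median of 0.16, where the median of all genes was 0.07. With normexp background correction and the 75th percentile scaling, 30 were positive and 7 negative. Their median there was 0.10, against -0.01 for all genes. The upward lean of the subunits is therefore given as a value at the 75th percentile scaling, with its sign not settled across scalings. The WT arrays also did not lie evenly. WT replicate 3 was the lowest WT array in 30 of the 37 subunits and WT replicate 2 the highest in 28. Relative to each gene's WT mean, the median subunit stood at 0.12, 0.10 and 0.10 on C3aR-/- replicates 1 to 3, and at 0.01, 0.04 and -0.05 on WT replicates 1 to 3.

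**Figure D1:**
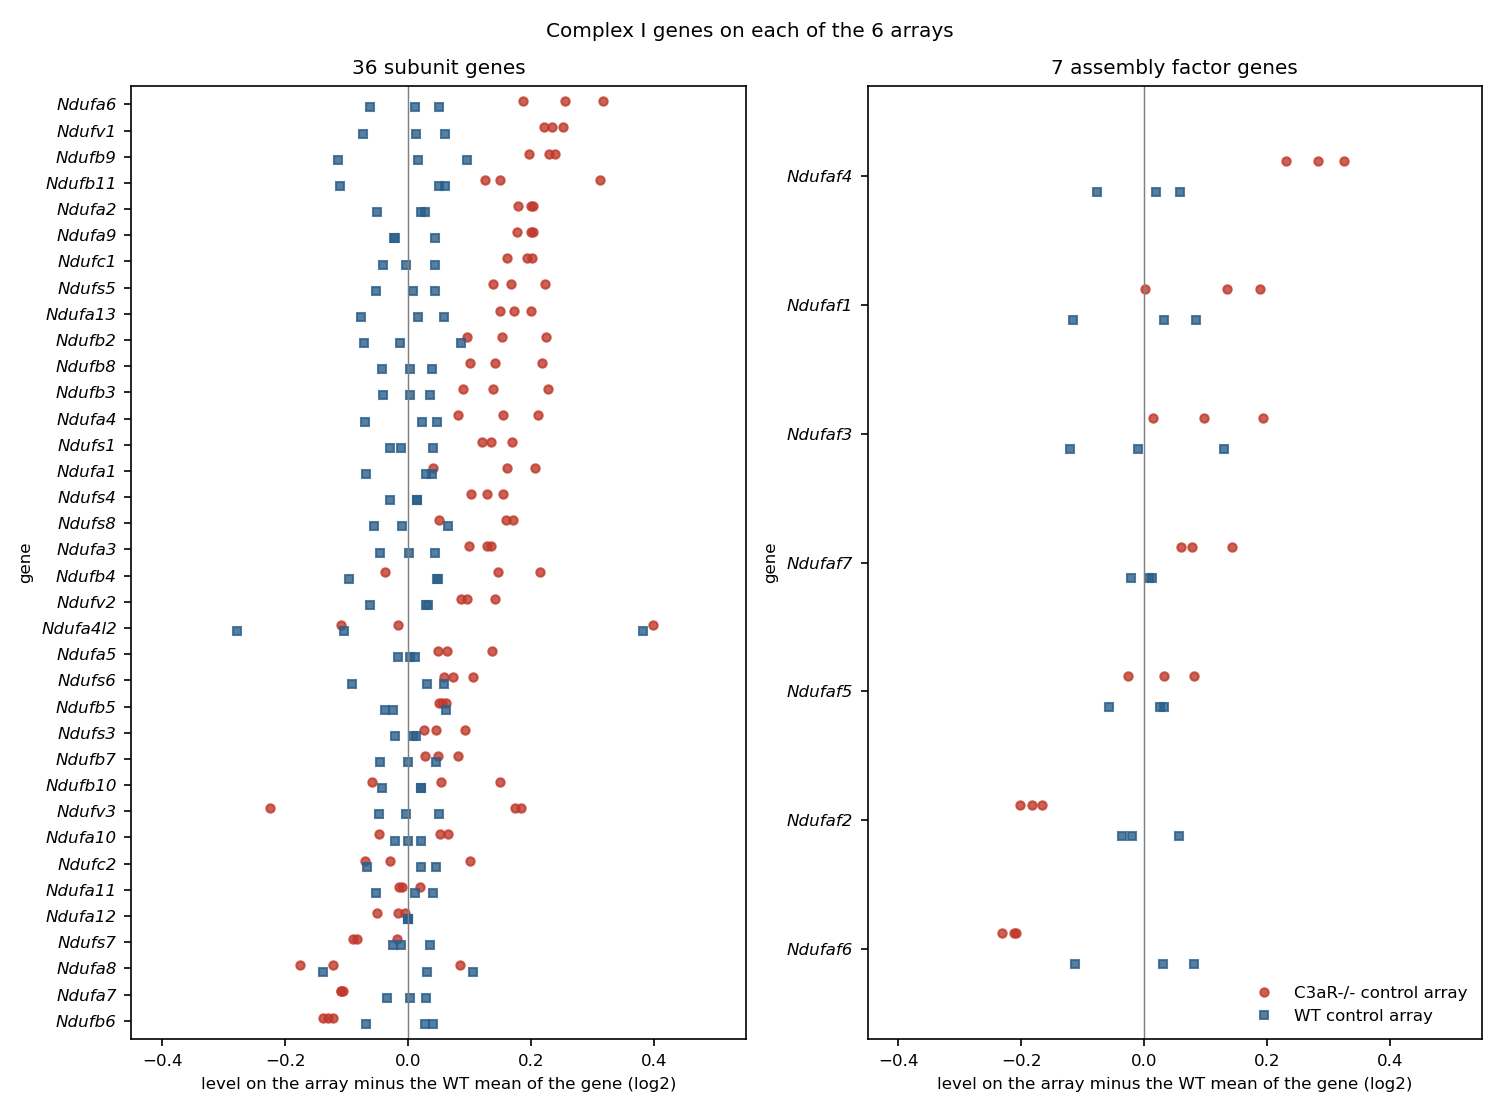
Level of each of 36 subunit genes (left) and 7 assembly factor genes (right) on each array, minus the WT mean of the gene, on the log2 scale; circles are C3aR-/- arrays and squares WT arrays. Ndufa6, Ndufv1 and Ndufaf4 show every C3aR-/- array above every WT array, Ndufaf2 and Ndufaf6 every C3aR-/- array below, and Ndufv3 has 1 C3aR-/- array far below the other 2.

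In the N module, 8 of 10 genes had a positive log2 change and the median was 0.12, with 0 called. Ndufv1, the subunit that binds NADH and the flavin, had levels of 6.34, 6.32 and 6.30 on the C3aR-/- arrays and 6.10, 6.14 and 6.01 on the WT arrays. Its 3 C3aR-/- arrays lay close together and above every WT array. The log2 change was 0.24 (SE 0.06) with an adjusted p of 0.0536 in limma, and its other probe gave 0.08. Ndufa6, an accessory subunit that docks the mitochondrial acyl carrier protein, had levels of 6.58, 6.45 and 6.52 on the C3aR-/- arrays and 6.27, 6.31 and 6.20 on the WT arrays. It had the highest positive change of the subunits, 0.25 (SE 0.07, adjusted p = 0.0533), with no overlap between the genotypes.

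The remaining N module genes were closer to 0. Ndufs1, the largest subunit and a carrier of iron-sulfur clusters, had a log2 change of 0.14 (adjusted p = 0.136), and Ndufv2, which carries a further cluster, had 0.11 (adjusted p = 0.251). Ndufa2, a small subunit with a thioredoxin-like fold, was at 0.19 (adjusted p = 0.0682). Ndufs4, whose loss in mice gives a mitochondrial brain disease, was at 0.13 and Ndufs6, a zinc-binding subunit, at 0.08. Ndufa12 was at -0.02 and Ndufa7 at -0.11, and both had every C3aR-/- array below every WT array. In Ndufa7 the levels were 5.72 on each of the 3 C3aR-/- arrays and 5.79, 5.86 and 5.83 on the WT arrays (adjusted p = 0.213). Ndufv3, a small subunit next to Ndufv1 and Ndufv2, had levels of 6.39, 6.79 and 6.80 on the C3aR-/- arrays and 6.61, 6.66 and 6.56 on the WT arrays. Its C3aR-/- replicate 1 lay below all WT arrays and the other 2 above them, and the mean change was 0.04 (SE 0.12).

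Of 4 genes of the Q module reported here, 3 were positive and 0 were called. Ndufs8, which holds iron-sulfur clusters on the way to ubiquinone, had the highest value of the 4, 0.13 (adjusted p = 0.233). Ndufs7, an iron-sulfur subunit next to the ubiquinone site, was at -0.06 (adjusted p = 0.470), and the arrays of the genotypes overlapped. Ndufs3, a core subunit of the peripheral arm, was at 0.05 (95% interval -0.08 to 0.19) and the accessory subunit Ndufa5 at 0.08. The 30 accessory subunits of the whole enzyme had a median of 0.11.

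In the part of the membrane arm next to the peripheral arm, 8 of 9 genes were positive with a median of 0.14. Ndufa9, a nucleotide-binding subunit at the joint of the arms, had levels of 4.55, 4.57 and 4.57 on the C3aR-/- arrays and 4.35, 4.41 and 4.34 on the WT arrays. The genotypes did not overlap (log2 change 0.19, SE 0.05, adjusted p = 0.0664). Ndufc1 was at 0.19, Ndufs5 at 0.18 and Ndufa13, also known as GRIM-19, at 0.17, with adjusted p of 0.0777, 0.101 and 0.112 in limma, and again without overlap. Ndufa1, an X-linked subunit, was at 0.14 and Ndufa3 at 0.12, while Ndufc2 was at 0.00. Ndufa8, a subunit of the intermembrane space side, had levels of 3.74, 3.54 and 3.48 on the C3aR-/- arrays and 3.77, 3.69 and 3.52 on the WT arrays, which overlapped.

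In the distal membrane arm, 9 of 10 genes were positive with a median of 0.13. Ndufb9, like Ndufa6 a member of the LYR family that docks the acyl carrier protein, had levels of 6.67, 6.66 and 6.62 on the C3aR-/- arrays and 6.45, 6.52 and 6.32 on the WT arrays. Its change of 0.22 (SE 0.07) had an adjusted p of 0.0924. Ndufb11, an X-linked subunit, had levels of 6.57, 6.38 and 6.40 on the C3aR-/- arrays and 6.31, 6.30 and 6.14 on the WT arrays. C3aR-/- replicate 1 lay above the other arrays, and the change was 0.20 (SE 0.08, adjusted p = 0.160). Ndufb2, Ndufb3 and Ndufb8 were at 0.16, 0.15 and 0.15. Ndufb6 was the lowest of the 37 subunits, with levels of 5.22, 5.23 and 5.24 on the C3aR-/- arrays and 5.39, 5.40 and 5.29 on the WT arrays. All its C3aR-/- arrays lay below the WT arrays, with a change of -0.13 (SE 0.06, adjusted p = 0.179).

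A pair of the genes that carry a subunit name differ in role. Ndufa4, now known as a subunit of complex IV, was at 0.15 (SE 0.07, adjusted p = 0.176), and its 3 C3aR-/- arrays lay above the WT arrays. Ndufa4l2, a relative of Ndufa4 that hypoxia induces, had levels of -1.15, -0.65 and -1.06 on the C3aR-/- arrays and -1.32, -1.15 and -0.66 on the WT arrays. Its arrays spread more than the difference between genotypes, and its 95% interval ran from -0.43 to 0.61. Without both genes the median of the remaining 35 subunits was still 0.11. Ndufa11, a membrane arm subunit, was at -0.00 with overlapping arrays.

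**Figure D2:**
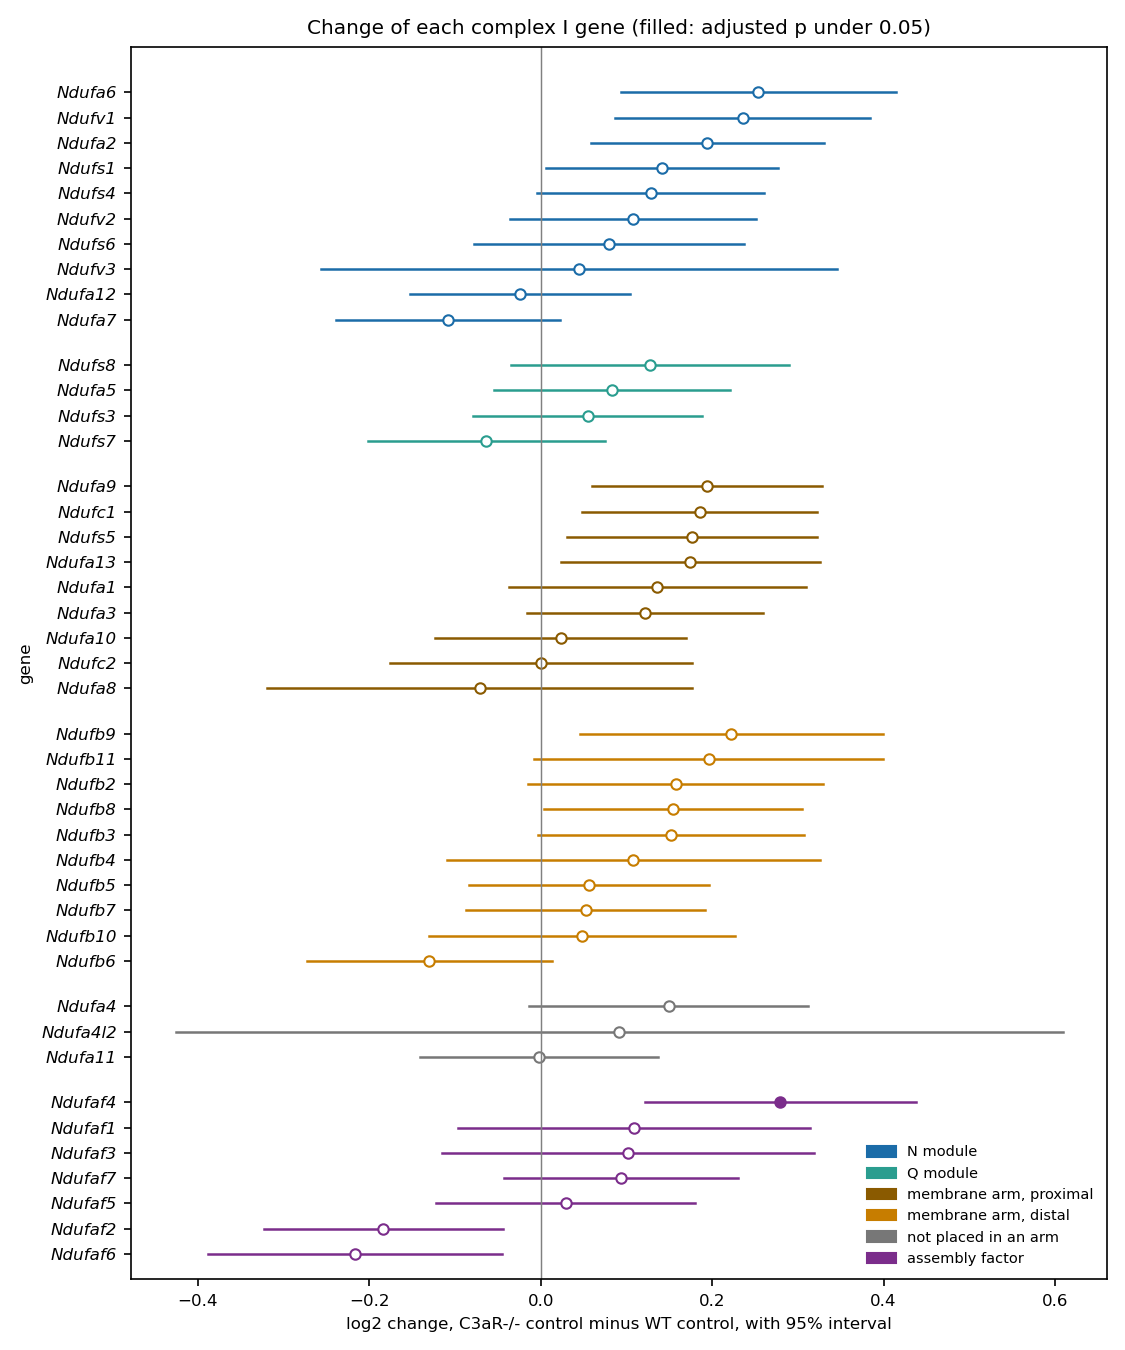
Log2 change of each of 43 genes, C3aR-/- minus WT, with its 95% interval from limma, grouped by place in the complex; a filled circle marks an adjusted p under 0.05. Ndufaf4 is the filled circle at 0.28, and the subunits lie between -0.13 and 0.25.

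Among the 7 assembly factors, 1 rose, 0 fell and 6 did not pass the test, a share of 14.3% called that was near the 14.4% of all genes. The gene that rose was Ndufaf4, a partner of Ndufaf3 in building the Q module. Ndufaf4 had levels of 2.20, 2.29 and 2.25 on the C3aR-/- arrays and 2.02, 1.99 and 1.89 on the WT arrays. Every C3aR-/- array lay above every WT array, and the level was 1.21-fold higher in C3aR-/- cortex (log2 change 0.28, SE 0.06, 95% interval 0.12 to 0.44, adjusted p = 0.0412 in limma). The call sat near the threshold. It was lost without any 1 of the 6 arrays (adjusted p 0.0683 to 0.121), with no filter on dim probes (0.0923), with genes averaged over their probes (0.0504) and with the replicate number as a block (0.105), while the log2 change stayed between 0.24 and 0.33. Ndufaf3 itself was at 0.10 (SE 0.09), with levels of 1.15, 1.24 and 1.06 on the C3aR-/- arrays and 1.04, 1.18 and 0.93 on the WT arrays, which overlapped.

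Both negative values among the assembly factors were larger in size than any negative value among the subunits, and neither passed the test. Ndufaf2, a relative of Ndufa12 that stands in for it during assembly, had levels of 2.21, 2.17 and 2.19 on the C3aR-/- arrays and 2.36, 2.43 and 2.34 on the WT arrays. Its change was -0.18 (SE 0.06, adjusted p = 0.0825). Ndufaf6, a factor for early assembly of the enzyme, had levels of 1.67, 1.69 and 1.69 on the C3aR-/- arrays and 1.79, 1.98 and 1.93 on the WT arrays. Its brightest probe was at -0.22 (SE 0.07, adjusted p = 0.0909), without overlap, and its other 2 probes were within 0.04 of 0. With normexp background correction both genes passed the test as lower. Ndufaf1, part of the intermediate assembly complex of the membrane arm, was at 0.11. Ndufaf7, a mitochondrial methyltransferase, was at 0.09, and Ndufaf5, which hydroxylates Ndufs7, at 0.03. The median of the 7 was 0.09, and 0.0416 without WT replicate 3.

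Probes of a gene did not always move together. Of 15 genes with more than 1 measured probe, 7 had probes of both signs, and these were Ndufa10, Ndufs1, Ndufv2, Ndufv3, Ndufb2, Ndufaf5 and Ndufaf6. Ndufa10, a membrane arm subunit related to nucleoside kinases, had a change of 0.02 on its brightest probe, with levels of 5.21, 5.32 and 5.31 on the C3aR-/- arrays and 5.23, 5.26 and 5.27 on the WT arrays. The intron-spanning probe printed above gave 0.17, and the probe at 94369356 gave -0.38 (SE 0.07, adjusted p = 0.0253). That last probe, with levels of -3.48, -3.43 and -3.44 on the C3aR-/- arrays and -3.07, -3.14 and -3.01 on the WT arrays, was the only one of the 63 called in the fit over probes, where 11.7% of all probes were called. The array files assign it to a different transcript entry of the gene than the other 2. The second probes of Ndufv2 and Ndufs1 were also negative, at -0.63 (adjusted p = 0.0715) and -0.33 (adjusted p = 0.161), against 0.11 and 0.14 on the brightest probes. Their mean levels in C3aR-/- and WT cortex were low, -4.53 and -3.90 for Ndufv2 and -2.66 and -2.33 for Ndufs1. The brightest probes were at 5.24 and 5.13 for Ndufv2 and at 5.94 and 5.80 for Ndufs1. In Ndufv1, Ndufa3, Ndufa5, Ndufa13, Ndufb5, Ndufb8 and Ndufaf7 all measured probes were positive.

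**Figure D3:**
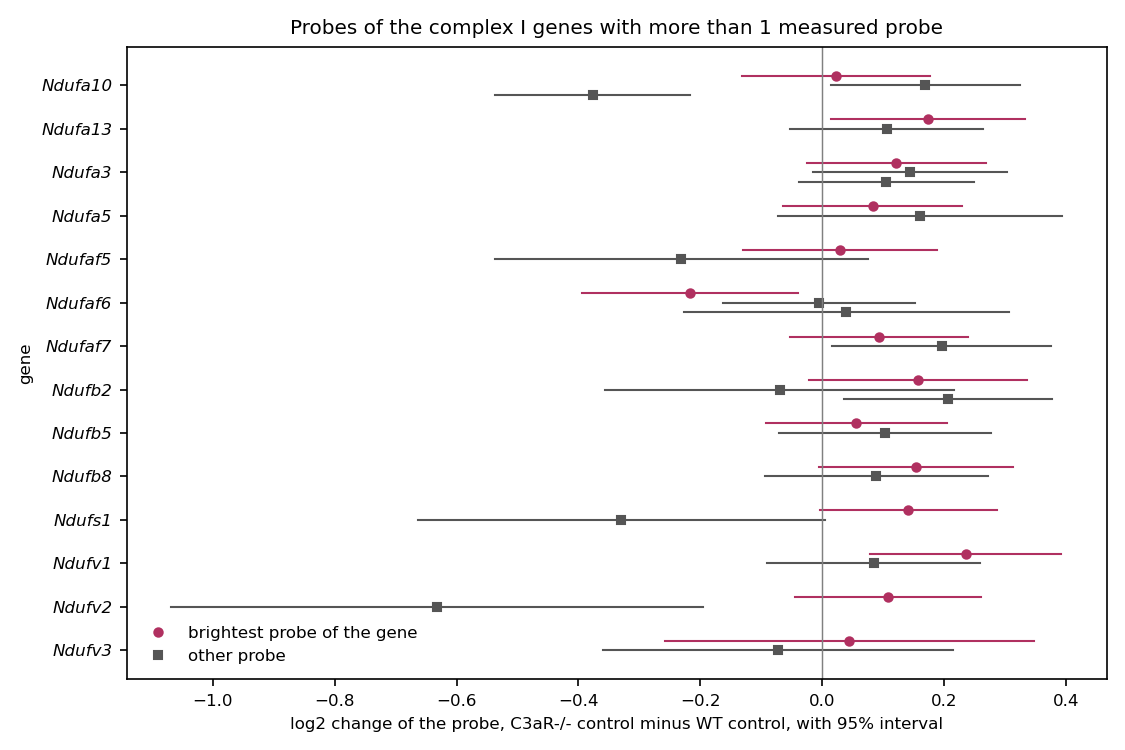
Log2 change of every measured probe of 14 genes with more than 1, C3aR-/- minus WT, with 95% intervals; circles are the brightest probe of a gene and squares its other probes. The probe of Ndufa10 at -0.38 and that of Ndufv2 at -0.63 lie apart from the brightest probes of the same genes.

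The mitochondrially encoded subunits were read by 7 probes, of which 6 were positive, against 52.7% of all genes, with a median of 0.17. The 1 that was called gave a share of 14.3%, near the 14.4% of all genes. ND6, the subunit encoded on the light strand, opposite to the other 6, fell in C3aR-/- cortex. Its levels were -1.96, -2.37 and -2.31 on the C3aR-/- arrays and -1.76, -1.47 and -1.61 on the WT arrays (log2 change -0.60, SE 0.13, adjusted p = 0.0378). ND5, its neighbour, had levels of 5.96, 5.76 and 5.83 on the C3aR-/- arrays and 5.74, 5.67 and 5.63 on the WT arrays. The C3aR-/- arrays were above the WT arrays there, with a change of 0.17 that did not pass (adjusted p = 0.170). ND2 was at 0.44 (SE 0.12, adjusted p = 0.0564), ND4L at 0.23 (adjusted p = 0.0874), ND4 at 0.09 and ND1 at 0.06. ND3 was at 0.46 (SE 0.17, adjusted p = 0.116), and the array files place its probe on chromosome 1 and not on the mitochondrial sequence. The ND6 call was lost in 7 of 16 alternatives and its sign in none.

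A further 16 complex I genes have names outside the Nduf pattern, and 1 of these rose and 1 fell. The share called, 12.5%, was near the 14.4% of all genes. Timmdc1, an assembly factor of the membrane arm, had levels of 2.09, 2.08 and 2.18 on the C3aR-/- arrays and 2.49, 2.66 and 2.47 on the WT arrays. It fell by 0.42 on the log2 scale (SE 0.08, adjusted p = 0.0235), with its other probes at -0.37 and 0.28. The probe at 0.28 had mean levels of -3.18 in C3aR-/- and -3.46 in WT cortex. Tmem70, which helps to assemble ATP synthase and complex I, rose (log2 change 0.28, SE 0.07, adjusted p = 0.0462), with levels of 3.32, 3.35 and 3.38 on the C3aR-/- arrays and 3.05, 3.17 and 3.01 on the WT arrays. The genotypes did not overlap in either gene, as in 41.4% of all genes. The Timmdc1 call was lost in 9 of 16 alternatives and the Tmem70 call in 10. Ndufab1, the acyl carrier protein that sits in both arms, was at -0.03, with its other probe at 0.28. The median of the 16 was 0.02. Ndufaf8 is on the array under an older clone name and was not among the 44.

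In the other complexes the share of genes called ran from 0 in complex II to 26.7% in ATP synthase, against 14.4% of all genes. Complex II had 0 of 8 genes called by limma, with 0 at an unadjusted p under 0.05, and a median of -0.03. Of the complex III genes, 1 of 15 rose, the assembly factor Uqcc3 (0.33, adjusted p = 0.0306), and of complex IV and cytochrome c 1 of 14, the heart and muscle isoform Cox6a2 (1.15, adjusted p = 0.0133). ATP synthase had 4 of 15 genes called, all higher in C3aR-/- cortex, where 7.09% of all genes were called higher, with a median of 0.20. These were Atp5j at 0.34, Atp5a1 at 0.34, Atp5o at 0.27 and Atp5b at 0.23 (adjusted p 0.0244 to 0.0412), of which the alpha and beta subunits Atp5a1 and Atp5b form the catalytic head. Each of these 4 calls was lost in 10 or 11 of 16 alternatives. In the deposited log2 table, 0 of the 15 were higher and 1 was lower, with a median of 0.06. The median of the complex I subunits, 0.11, lay between those of complexes III (0.06) and IV (0.14). No test of a difference between complexes was made.

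**Figure D4:**
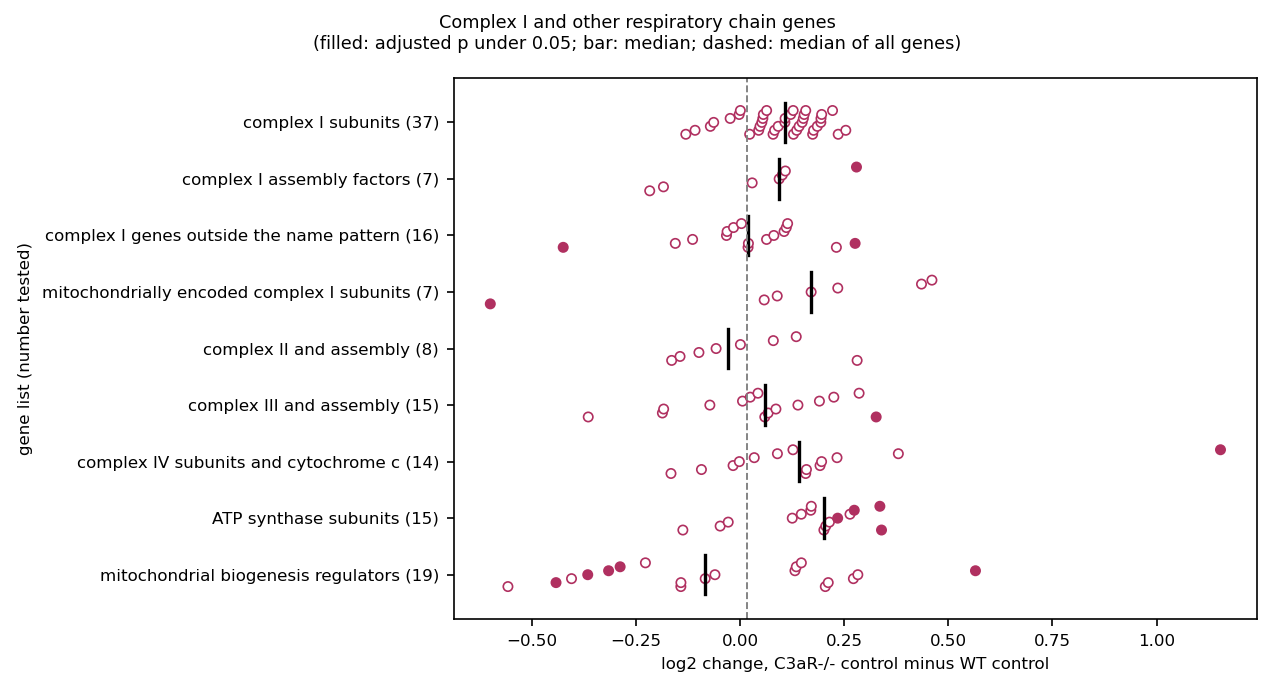
Log2 change, C3aR-/- minus WT, of the genes of each complex I list, the other respiratory complexes and the regulators of mitochondrial biogenesis; filled circles have an adjusted p under 0.05, bars are medians and the dashed line is the median of all genes. The subunit genes show no filled circle and a median of 0.11, ATP synthase 4 filled circles and a median of 0.20, and ND6 is the filled circle at -0.60.

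The list of regulators of mitochondrial biogenesis held 19 genes, mostly transcription factors and coactivators, with a median of -0.08. It included an RNA polymerase, Polrmt, and a metabolic enzyme, citrate synthase (Cs, at 0.13). Of the 19 genes, 1 rose and 4 fell, 26.3% in all, against 14.4% of all genes (7.09% higher and 7.33% lower). Nrf1, a factor that binds the promoters of many respiratory genes, had levels of 0.13, 0.01 and 0.06 on the C3aR-/- arrays and 0.47, 0.40 and 0.42 on the WT arrays. It fell by 0.37 on the log2 scale (SE 0.06, adjusted p = 0.0203), while its other probes were at -0.10 and -0.04. Gabpa, also called NRF-2 alpha, fell by 0.44 (adjusted p = 0.0168) on its brightest probe, with other probes at 0.28 and 0.09. Esrrg, an oestrogen-related receptor, fell by 0.32 (adjusted p = 0.0439), with other probes at -0.34 and 0.16. The Esrrg probe at 0.16 had mean levels of -4.68 in C3aR-/- and -4.84 in WT cortex. Polrmt, the mitochondrial RNA polymerase, fell by 0.29 (adjusted p = 0.0364). The gene that rose was Ppara, a receptor for fatty acids (0.57, adjusted p = 0.0361), whose other probe was at -0.00. Ppargc1a, the coactivator PGC-1 alpha, was at 0.27 (adjusted p = 0.0553), Tfam, which packages mitochondrial DNA, at 0.20 (0.112) and Esrra, the partner of PGC-1 alpha, at -0.23 (0.0824). Each of these 3 had no overlap between genotypes, which held for 41.4% of all genes. Of 16 alternatives, the call was lost in 8 for Nrf1, 5 for Gabpa, 11 for Esrrg, 9 for Polrmt and 9 for Ppara.

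RefSeq promoter windows of build GRCm38.p6, 250 bases before to 50 after the start of transcription, were matched for 38 of the 44 genes, 32 subunits and 6 assembly factors. They were searched on both strands for 4 motifs, counting a gene if any of its windows held the letters. The NRF1 motif, GCGCA then any base then GCGC, was in 7 of 32 subunits (21.9%) and 2 of 6 assembly factors, against 7.17% of 17492 protein-coding genes. The YY1 motif, AA then any base then ATGGCGG, was in 4 subunits (12.5%), against 2.26%. The GABPA motif CCGGAAG was in 4 subunits (12.5%), against 12.9%, and the oestrogen-related receptor motif CAAGGTCA in 1 (3.12%), against 1.56%. Ndufaf4, the gene that rose, and Ndufa6, the subunit with the highest change, both held the NRF1 motif, and their windows are shown with it in capitals. The other genes with it were Ndufs5 at 0.18, Ndufb4 at 0.11, Ndufa5 and Ndufs6 at 0.08, Ndufaf5 at 0.03, Ndufa11 at -0.00 and Ndufa8 at -0.07. Ndufv1, at 0.24, did not hold it. A link between the motif and the changes was not tested. Ndufaf4 lies at chr4:24897833-24898132, plus strand, and Ndufa6 at chr15:82354242-82354541, minus strand.
Ndufaf4 promoter: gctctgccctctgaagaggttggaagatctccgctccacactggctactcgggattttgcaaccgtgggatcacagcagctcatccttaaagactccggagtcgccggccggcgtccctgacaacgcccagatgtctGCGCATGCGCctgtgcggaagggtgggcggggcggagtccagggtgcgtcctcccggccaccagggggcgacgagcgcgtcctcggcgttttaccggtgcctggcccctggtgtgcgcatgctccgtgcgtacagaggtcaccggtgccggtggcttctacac
Ndufa6 promoter: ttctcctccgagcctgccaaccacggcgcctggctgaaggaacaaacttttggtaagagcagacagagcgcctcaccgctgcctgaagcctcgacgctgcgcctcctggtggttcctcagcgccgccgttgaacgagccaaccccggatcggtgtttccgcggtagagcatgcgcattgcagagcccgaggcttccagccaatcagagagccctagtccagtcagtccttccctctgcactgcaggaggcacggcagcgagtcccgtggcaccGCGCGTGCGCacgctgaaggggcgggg
The motif began 113 bases before the start of Ndufaf4, where it reads the same on both strands, and 23 bases after the start of Ndufa6, on the reverse strand. A match describes these letters and not a bound factor.

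Markers of some kidney cell types differed between genotypes in the same libraries. The counts called below stand against 7.09% of all genes called higher and 7.33% called lower. The 10 proximal tubule markers summed to 1025 to 1092 on the C3aR-/- arrays and 887 to 951 on the WT arrays, in units of the 75th percentile signal of the array. Of these 10, 2 rose and 0 fell, with a median log2 change of 0.20, and all 10 were well above background on all 6 arrays. Ggt1, 1 of the 8 that did not pass, had a change of -0.00. The 5 thick ascending limb markers summed to 341 to 358 on the C3aR-/- arrays and 322 to 328 on the WT arrays, with 1 higher and Kcnj1 at -0.11, uncalled and with every C3aR-/- array below every WT array. Principal cell markers summed to 32.4 to 38.7 in C3aR-/- cortex and 24.3 to 25.8 in WT cortex, with 3 of 5 higher. Distal convoluted tubule markers summed to 77.3 to 82.9 in C3aR-/- cortex and 70.0 to 84.9 in WT cortex; Pvalb was lower in C3aR-/- cortex (-0.47) and the other 3 did not pass. Intercalated cell markers summed to 37.03 to 37.6 in C3aR-/- cortex and 34.8 to 36.3 in WT cortex; Slc4a1 was lower in C3aR-/- cortex (-0.51) and the other 4 did not pass. Podocyte markers summed to 20.9 to 24.2 in C3aR-/- cortex and 16.7 to 20.2 in WT cortex, with 1 of 5 higher. The summed levels of proximal tubule, thick limb, principal cell, intercalated cell and podocyte markers did not overlap, with the C3aR-/- arrays above. Of all single genes, 22.3% had every C3aR-/- array above every WT array. Most single markers of these lists did not pass the test. Among the intercalated cell markers 3 of 5 had a negative change, with a median of -0.09. Slc26a4, at 0.18, had the highest level of those 5 and weighed most in their sum. Endothelial markers summed to 17.2 to 20.1 in C3aR-/- cortex and 21.96 to 23.35 in WT cortex, with 1 of 5 higher and 1 lower. B cell and plasma cell markers summed to 0.792 to 0.909 in C3aR-/- cortex and 3.10 to 4.36 in WT cortex, with 3 of 5 lower. Fibroblast and smooth muscle markers summed to 13.1 to 16.1 in C3aR-/- cortex and 11.7 to 19.6 in WT cortex, with 0 called. Macrophage markers summed to 9.36 to 10.5 in C3aR-/- cortex and 8.84 to 13.6 in WT cortex, with 1 of 5 lower. All 5 had a negative change, with a median of -0.13. Csf1r, at -0.15 and uncalled, had the highest level of those 5 and weighed most in their sum. The sums of the fibroblast and smooth muscle list and of the macrophage list overlapped between genotypes. Those of the endothelial list and of the B cell and plasma cell list did not, with the C3aR-/- arrays below. Every C3aR-/- array lay below every WT array in 19.1% of all single genes. The part of these cell types in the values of the complex I genes was not tested.

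**Figure D5:**
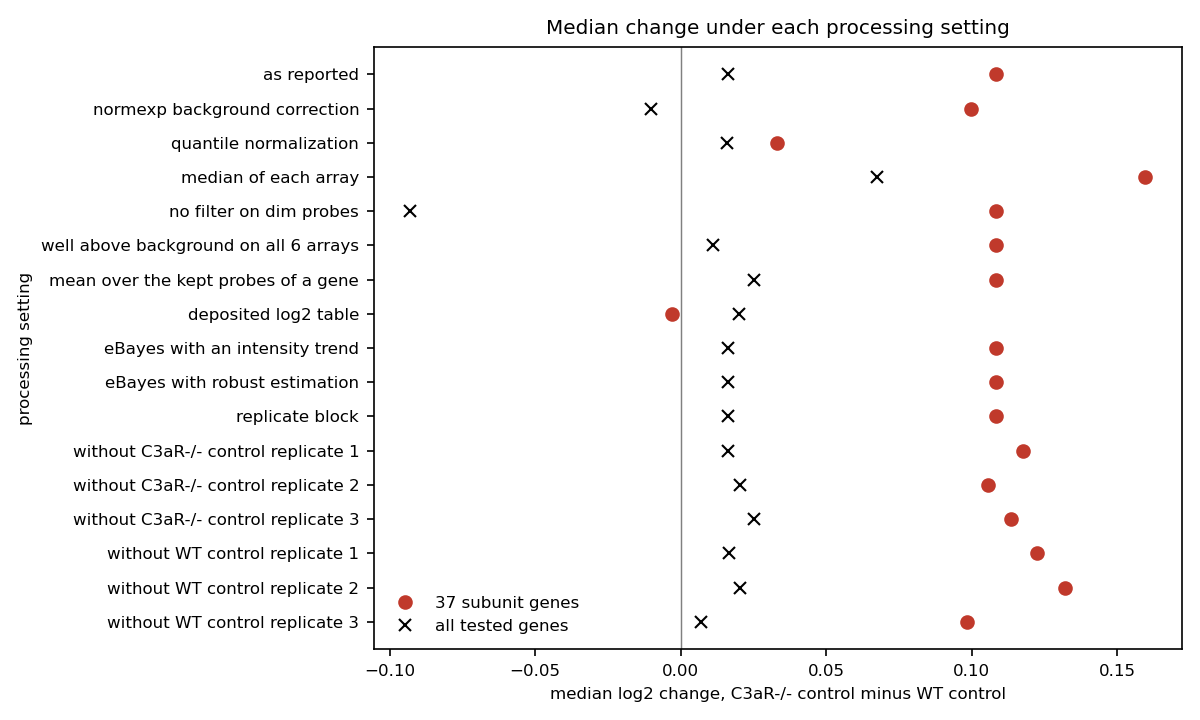
Median log2 change of the 37 subunit genes (circles) and of all tested genes (crosses), C3aR-/- minus WT, under each processing setting. The subunit median is 0.11 as reported, 0.16 with scaling to the array median, 0.03 with quantile normalisation and -0.00285 in the deposited log2 table.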

How the data were processed

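RNA of 6 kidney cortex samples was hybridised as Cy3-labelled cRNA, made from 0.2 µg of RNA, to 1-colour arrays, per the labels' protocols. Agilent Feature Extraction 10.7.1.1 gave each spot its intensity, with background subtracted, per the file headers. The authors also deposited a table of log2 values, which matched the log2 intensity of its own array at r = 0.995 to 0.996; sorted, its columns differed by at most 0.000903, with a median of 5.38, and the sources used here do not give its further processing. It was used as an alternative only.

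The intensity was put on the log2 scale and the 75th percentile of each array was subtracted. Outlier-flagged and control spots were dropped and a probe's spots averaged. A probe was kept if, on the 3 arrays of either genotype, over 0.5 of its spots were well above background, which left 30931 probes and 20438 genes, each with its brightest probe. The comparison used lmFit and eBayes of limma 3.58.1 in R 4.3.3, two-sided, and p-values were adjusted over all genes by Benjamini and Hochberg, with calls at 0.05. A second fit over all probes gave the values of single probes. Every p and adjusted p in the text is from limma. The fit was also run on simulated data, with changes larger than that of any of the 44 genes. That run is no check of changes of their size. With 3 arrays per genotype, the number of arrays limits the precision. Coordinates are those of the array files (mm9), except the promoter windows (RefSeq, GRCm38.p6). Replicate numbers were not used to pair the samples. Same-numbered arrays deviated together at r = 0.04, -0.03 and -0.07, and differently numbered arrays at -0.07 to 0.08. With 3 arrays per genotype these values cannot exclude a pairing.

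The alternatives were normexp background correction (offset 50), quantile and median scaling, no filter on dim probes, a filter on all 6 arrays, the mean over probes, the deposited table, eBayes with a trend or robust estimation, the replicate number as a block, and leaving out each array. The genes named are those past the threshold, the 5 highest and 5 lowest changes, the nuclear core subunits, Ndufa4, Ndufa4l2, every assembly factor, genes whose probes differ in sign, the called genes of the other lists, and Ppargc1a, Esrra, Nrf1 and Tfam. Further genes appear as values of their group. The values of 1 of the 37 subunits are not reported here, though it enters the counts and medians over all members. The members and lists were chosen with earlier results of these data known. Ndufb1, Ndufb4b and Ndufb4c had no matching name and were not analysed here, nor were Atp5if1, Coa1 and Cox5b.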

Additional observations from a re-analysis of the deposited data

How the results depend on the processing

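Over 16 alternatives no called change of a named gene turned its sign. Against 0 subunits called as reported, 4 were called with normexp background correction, 1 with scaling to the array median, 2 with the filter on all 6 arrays and 7 with an intensity trend in eBayes, and 0 with any array left out. Against 1 assembly factor called, the count was 3 with normexp background correction and 2 with the trend, and it was 0 without the filter on dim probes, 0 with the mean over probes and 0 with any array left out. The subunit median of 0.11 was 0.033 with quantile normalisation, 0.16 with the array median and -0.00285 in the deposited log2 table, and 0.0985 to 0.132 with an array left out. The assembly factor median of 0.09 was 0.0416 to 0.0981 with an array left out, lowest without WT replicate 3; the cause was not tested. The count of genes called over the array was 2949 as reported, 936 without the filter on dim probes, which tested more genes, and 681 to 1667 with an array left out, the lowest without C3aR-/- replicate 3; how many genes these fits share was not counted. With the replicate number as a block, which the pairing check did not bear out, 659 genes, 0 subunits and 0 assembly factors were called. Among the named subunits and assembly factors, the sign of an uncalled change turned in some alternatives for Ndufv3 (5 of 16), Ndufa10 (3), Ndufa4l2 (2), and Ndufs1, Ndufv2, Ndufs3 and Ndufaf5 (1 each). Calls of the other named genes were lost in 1 (Cox6a2) to 11 (Atp5a1, Atp5b, Atp5o and Esrrg) of 16.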
